A study of Caenorhabditis elegans with 2 samples.

Results

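The genes described here are the nuclear protein-coding genes whose products work in mitochondrial respiration or build the mitochondrial ribosome. The rule goes by symbol and uses no measured value, but it was set with earlier results of these data known. It takes every gene named nuo-, cox-, atp-, sdh, cyc-, mrpl- or mrps-, together with mev-1, gas-1, isp-1, clk-1 and ucr-1. The rule found 108 of the 19973 nuclear protein-coding genes of Caenorhabditis elegans, 38 of the respiratory chain and 70 of the mitochondrial ribosome. The experiment was chromatin immunoprecipitation and sequencing (ChIP-seq) of CEH-14, a LIM homeodomain transcription factor known for specifying sensory and interneurons. Its single group was hermaphrodite worms of strain OP315, taken as whole late embryos 5 hours after synchronization by egg bleaching, with 2 biological replicates. All worms carried a stable transgene in which CEH-14 ends, at the C-terminus, in a GFP-FLAG tag, and an antibody against GFP recovered the tagged protein from sonicated chromatin. The promoter that drives the transgene is not given in the sources used here, no control library was analysed, and a whole embryo mixes neurons with every other cell type.

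Respiration in mitochondria passes electrons from complex I and complex II through ubiquinone to complex III, then by cytochrome c to complex IV, which reduces oxygen. The proton gradient this builds drives complex V, the ATP synthase. A few core subunits are made inside the organelle by its own ribosome, while the other subunits, and all proteins of that ribosome, are encoded in the nucleus and imported. In C. elegans several of these genes, among them clk-1, isp-1, gas-1 and mev-1, are known from mutants with altered life span or oxidative stress resistance.

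A gene was counted as having a peak when the summit of a peak lay no more than 1000 bases from any of its annotated transcript starts, in ce11 coordinates. The strict list holds the 1681 peaks that the authors kept by the irreproducible discovery rate (IDR), which asks how alike the replicates rank their peaks, and these were the 1681 strongest of the 21766 entries in the authors' pooled relaxed list. The signal value given for an entry is the authors' own. It orders entries within a list and has no meaning across lists. Read numbers are not in the files, so the depth behind an entry is unknown. With 1 group, and no control library analysed, no test between conditions was made. The shares below are descriptions, and their Wilson 95% intervals cover counting error over genes only. The same holds for the Newcombe intervals of differences between shares. Genes are not replicates, and none of these intervals is a test.

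Peaks stood at about 1 in 5 of these genes, among them 5 of the 7 complex IV subunit genes. Of the 108 genes, 22 (20.4%, interval 13.9 to 28.9%) had an IDR peak, against 6.76% of all nuclear protein-coding genes. The respiratory chain had 11 of 38 (28.9%, interval 17 to 44.8%) and the mitochondrial ribosome 11 of 70 (15.7%, interval 9.01 to 26.0%). The share was 13.2 percentage points higher in the respiratory chain, with a Newcombe interval of -2.52 to 30.4, which includes 0. Counting only the gene whose start was nearest to a summit, the shares were 26.3% and 11.4%, against 4.91% of all genes, and the interval of the difference was 0.0677 to 31.5. The strongest entries of replicate 1 alone, without replicate 2, gave a difference of 17.5 points (2.24 to 34.3). Leaving out peaks near small RNA genes lowered it to 7.97 points (-6.86 to 24.9), since cox-6A and sdha-1, both of the respiratory chain, were lost, and the 840 strongest IDR peaks gave 8.65 points (-3.27 to 23.8). No peak was shared by 2 of the 22 genes, and the peaks ranked from 106 to 1652 in the pooled list.

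The DNA under 7 of these peaks is shown here. The windows below hold 101 bases centred on the summit, in the direction of the gene, from the RefSeq copy of the same assembly (WBcel235, ce11). They were chosen from the peaks whose window held no exon, to show the highest-ranked peak of either group and windows that share letters, so that they are not a sample of the 22. Capitals mark motifs searched on either strand. These were the homeodomain core TAATTA, its variant with a final G, TAATTG, the repeat known from GAGA factors, GAGAGA, and the palindrome CGCG. The last, GCGCTCC, was added after the windows had been read, and it can overlap the palindrome. The cox-5A window held none of them.
mrps-17, chrIII:6431881-6431981, minus strand: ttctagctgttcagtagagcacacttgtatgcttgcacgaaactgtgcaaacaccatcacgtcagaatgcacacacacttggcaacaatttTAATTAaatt
cox-5A, chrIII:12905152-12905252, plus strand: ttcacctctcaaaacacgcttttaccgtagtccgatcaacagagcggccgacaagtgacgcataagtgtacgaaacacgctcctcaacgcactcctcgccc
cox-6B, chrIII:2786010-2786110, plus strand: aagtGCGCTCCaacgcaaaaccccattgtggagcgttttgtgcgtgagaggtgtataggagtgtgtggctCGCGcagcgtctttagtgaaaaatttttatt
mev-1, chrIII:10334115-10334215, plus strand: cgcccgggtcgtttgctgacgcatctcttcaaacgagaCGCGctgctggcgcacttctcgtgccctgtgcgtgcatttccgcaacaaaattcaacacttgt
mrps-9, chrIII:8265888-8265988, plus strand: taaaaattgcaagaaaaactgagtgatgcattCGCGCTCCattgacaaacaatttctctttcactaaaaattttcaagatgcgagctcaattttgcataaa
mrpl-55, chrIV:443834-443934, plus strand: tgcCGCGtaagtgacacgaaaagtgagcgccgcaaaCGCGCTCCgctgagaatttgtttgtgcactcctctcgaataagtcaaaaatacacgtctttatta
mrpl-45, chrIII:1202324-1202424, minus strand: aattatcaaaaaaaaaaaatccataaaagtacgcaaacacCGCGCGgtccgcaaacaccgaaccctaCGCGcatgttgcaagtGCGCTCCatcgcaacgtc

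The homeodomain core was rare in these windows, as at the peaks in general. TAATTA lay in 1 of the 22 windows (4.55%), that of mrps-17, against 5.86% of all 1671 nuclear IDR summits, and TAATTG in 0 of 22 against 6.94%. GAGAGA lay in 1 of 22 (4.55%), at sdha-1, against 25.9% of all nuclear IDR summits. CGCG lay in 13 of 22 (59.1%) against 40.9%. GC content was 45.9 ± 7.59% (mean and SD over 22 windows) against 48.0 ± 8.61% over all nuclear IDR summits. In the promoters of all 108 genes, from 250 bases before to 50 after the outermost start, CGCG was met in 46.3% and TAATTA in 24.1%, against 27.9% and 15.5% of all promoters of that length. GAGAGA was met in 20.4% of these promoters, against 21.8% of all. A match describes letters in a window, and no test was made.

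Complex IV, cytochrome c oxidase, had peaks at 5 of its 7 subunit genes (71.4%, interval 35.9 to 91.8%, against 6.76% of all genes). That interval overlaps those of the other complexes, such as complex II and complex V (2 of 5 each, interval 11.8 to 76.9%). The peak of cox-5A (III, 12905083 to 12905269) had a pooled signal value of 211.8 and rank 135, with a rank of 147 in replicate 1 and 132 in replicate 2. The peak of cox-5B (I, 9788582 to 9788756), 31 bases from its start, had a signal value of 187.0 and rank 187, with ranks of 245 and 163. These peaks were narrow, 187 and 175 bases, against a median of 456 bases over all IDR peaks.

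The peaks of cox-6A, cox-6B and cox-6C differed more between replicates. The cox-6A peak had a pooled rank of 301, better in replicate 1 (166) than in replicate 2 (636). It lay 781 bases before the gene, farther than any other of the 22, with the snRNA gene F54D8.7 within 200 bases of the summit; the part of F54D8.7 in it was not tested. The pooled rank of the cox-6B peak was 326, with 247 in replicate 1 and 539 in replicate 2. Its summit lay inside the annotated gene, 142 bases before an internal start of cox-6B. It was nearer, at 112 bases, to the start of Y71H2AM.20, and it also lay in the window of nduc-2, named for a complex I subunit. With only the outermost start of each gene counted, cox-6B lost its peak, alone among the 22. The cox-6C peak, in an exon of a non-coding gene, ranked 1562 when pooled, with 4139 in replicate 1 but 1145 in replicate 2. The other subunit genes were cox-4, whose entry ranked 4465 in the pooled list, and cox-7C, which had no entry in any list.

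The genes cox-10, cox-11, cox-14, cox-15, cox-16, cox-17, cox-18 and cox-19, whose yeast counterparts are assembly factors and no subunits, had 0 IDR peaks. That was 0 of 8 (interval 0 to 32.4%), and the interval includes the 6.76% of all genes. Of these, cox-14 came nearest, with a pooled signal value of 62.2 and rank 2342, and with rank 1611 in replicate 1 and 3212 in replicate 2. The entry of cox-11 ranked 3127, and cox-16, cox-10 and cox-15 had entries at ranks of 6512, 16933 and 20288. For cox-17, cox-18 and cox-19 no list held an entry. Subunits and assembly factors with a cox- symbol therefore stood at 5 of 7 and 0 of 8. This split by role was made with the earlier results known and was not tested. It leaves out assembly factors with other symbols. Of these, sco-1 had an IDR peak at rank 486, in a list of ubiquinone synthesis and assembly factors with 3 of 18 such genes. The split also moved with the setting. Among the strongest entries of replicate 1 alone, cox-14 gained a peak and cox-6C lost its own. The single nearest start dropped cox-6B, and leaving out peaks near small RNA genes dropped cox-6A.

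**Figure D1:**
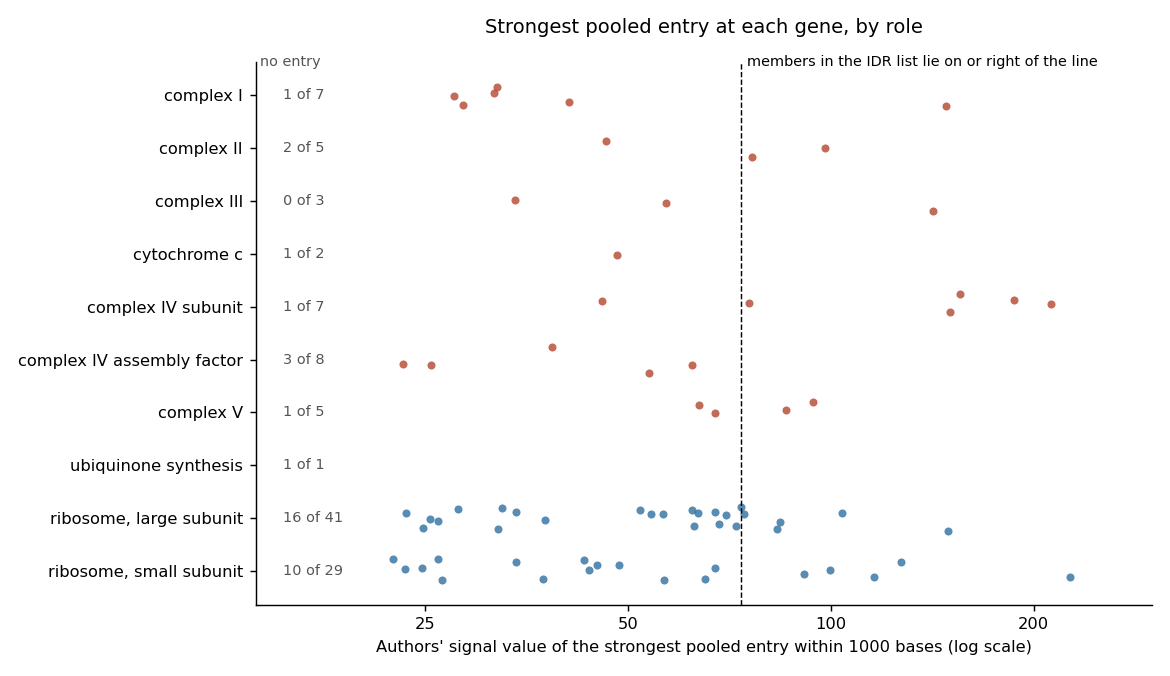
The authors' signal value of the strongest pooled entry of each gene (log axis), 1 point a gene, by complex or ribosomal subunit; grey numbers give genes without an entry. Of the complex IV subunit genes, 5 of 7 lie on or right of the dashed line, against 0 of 8 assembly factors with a cox- symbol. The line marks the weakest IDR peak of the genes shown (73.6). Over all nuclear protein-coding genes, 6.76% had an IDR peak.

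The genes of complexes I, II and III among the 108 had 4 peaks between them, and further subunits with other symbols are described with the other mitochondrial lists. In complex I, the entry point for electrons from NADH, nuo-2 had an IDR peak (signal value 148.3, rank 335; ranks 556 and 280 in replicates 1 and 2) and the other 6 of these genes did not. Of these, nuo-1 had an entry at rank 5788, nuo-3 at 10273, gas-1 at 10443, nuo-4 at 13492 and nuo-5 at 14323, while nuo-6 had one in replicate 2 only, at rank 13144. The entries of nuo-3 and gas-1 were met in replicate 1 but not in replicate 2, and that of nuo-4 in replicate 2 but not in replicate 1.

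In complex II, succinate dehydrogenase, peaks stood at mev-1, which encodes a membrane anchor subunit, and at sdha-1, which encodes the flavoprotein. The mev-1 peak had a pooled signal value of 97.9 and rank 945, with rank 567 in replicate 1 and 1645 in replicate 2. The sdha-1 peak, on X, ranked 1539, with 2256 and 1385 in the replicates, and had the snoRNA gene D2021.6 within 200 bases of its summit, whose part in it was not tested. Its second copy sdha-2 had no entry in any list. For the other anchor gene, sdhd-1, the entry ranked 4319, and for sdhb-1, the iron-sulfur subunit, the only entry was in replicate 1 at rank 19112.

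In complex III, cyc-1, which encodes cytochrome c1, had a peak 318 bases before its start with a signal value of 141.9 and rank 374, and with ranks 596 and 346 in replicates 1 and 2. The Rieske iron-sulfur gene isp-1 had an entry at rank 2772 (ranks 1955 and 3710), below the IDR list, and ucr-1 one at rank 8811 that replicate 1 lacked. Of the cytochrome c genes, cyc-2.1 had an entry at rank 3972 with rank 13502 in replicate 1 and 2396 in replicate 2, and cyc-2.2 had none in any list. The ubiquinone synthesis gene clk-1 had no entry in any list either.

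In complex V, peaks stood at atp-2, which encodes the beta subunit of the catalytic head, and at atp-3, which encodes a subunit of the stalk. The atp-2 peak had a signal value of 94.0 and rank 1033, with ranks of 1448 and 724, and its summit was 247 bases before the gene. The summit at atp-3 lay 1 base from an annotated start, with rank 1232 and ranks of 1325 and 1458 in the replicates. The gene atp-1, for the alpha subunit, stood just below the list at rank 2008. Its rank was 1345 in replicate 1 but 5247 in replicate 2, where its strongest entry lay 287 bases after the start. The entry of atp-5 ranked 2241, and atp-4 had entries in the replicates, at ranks of 11647 and 12620, but none in the pooled list.

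The mitochondrial ribosome held the strongest peak of all 108 genes. The mrps-17 peak (III, 6431795 to 6431999) had a pooled signal value of 226.3 and rank 106, with signal values of 110.8 and 111.7 and ranks of 92 and 138 in replicates 1 and 2. It lay 133 bases before mrps-17, the nearest start, and also within 1000 bases of txdc-9 and popl-1. Next came mrpl-15 with rank 332, 654 bases before its start and with ranks of 643 and 225, mrps-34 with rank 494 (490 and 627), mrps-35 with rank 649 (913 and 615) and mrpl-47 with rank 818 (1029 and 814).

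The remaining IDR peaks of the ribosome were weaker, and 3 of the 6 had ranks in the replicates that differed by a factor above 2. The peaks of mrps-15, mrps-9, mrpl-55 and mrpl-45 had pooled ranks of 904, 1080, 1283 and 1296, and those of mrpl-49 and mrpl-18 had 1621 and 1652. For mrpl-49 the rank was 4724 in replicate 1 against 1214 in replicate 2, and for the mrps-9 peak it was 2251 against 780. In contrast, the mrpl-45 peak ranked 1280 and 2822, and the mrpl-18 peak 1517 and 2632. The large subunit had 6 of 41 genes with a peak (14.6%, interval 6.88 to 28.4%) and the small subunit 5 of 29 (17.2%, interval 7.6 to 34.5%), against 6.76% of all genes. Both lower bounds lay close to that share, and the intervals of the subunits overlap.

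Ribosomal genes, which are 70 of the 108, stood on either side of the edge of the IDR list. The last of the 108 genes inside it was mrpl-18, with a pooled signal value of 73.6 and rank 1652. The first outside was mrpl-12, with 72.4 and rank 1702. Below it, in order, came mrpl-23 (rank 1838, with the snoRNA gene T08B2.13 within 200 bases), mrpl-39 (1942), mrpl-1 and mrps-24 (1990, an entry between them that they share), atp-1 (2008), mrps-23 (2165), atp-5 (2241), mrpl-37 (2265) and mrpl-44 (2313). At the window's edge, the cox-6A summit lay 781 bases from a start, the farthest inside. Just outside lay IDR summits 1014 bases from mrps-28, 1052 from cyc-2.1 and 1056 from mrps-21, with ranks of 59, 111 and 84.

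With weaker entries counted as well, these genes still had an entry more often than genes in general. The shares are cumulative and include the genes with an IDR peak, so they do not measure weaker entries alone. Among the 5000 strongest pooled entries, 19 of 38 respiratory chain genes and 27 of 70 ribosome genes (38.6%) had a summit in the window, against 15.8% of all genes. In the whole pooled list the shares were 73.7% (28 of 38, interval 58.0 to 85.0%) and 62.9% (44 of 70, interval 51.1 to 73.2%), and 66.7% for the 108 together, against 42.1% of all genes. The relaxed list holds background regions as well as peaks. The cytosolic ribosomal protein genes, taken from the same lists, had 30.8% in the IDR list and 93.6% in the pooled list (73 of 78), and the difference from the mitochondrial ribosome was not tested. Of the 108 genes, 23 (21.3%) had no entry in any of the pooled and replicate lists, 7 of the respiratory chain and 16 of the ribosome. The same share was not computed over all genes, so this count cannot be set against genes in general.

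**Figure D2:**
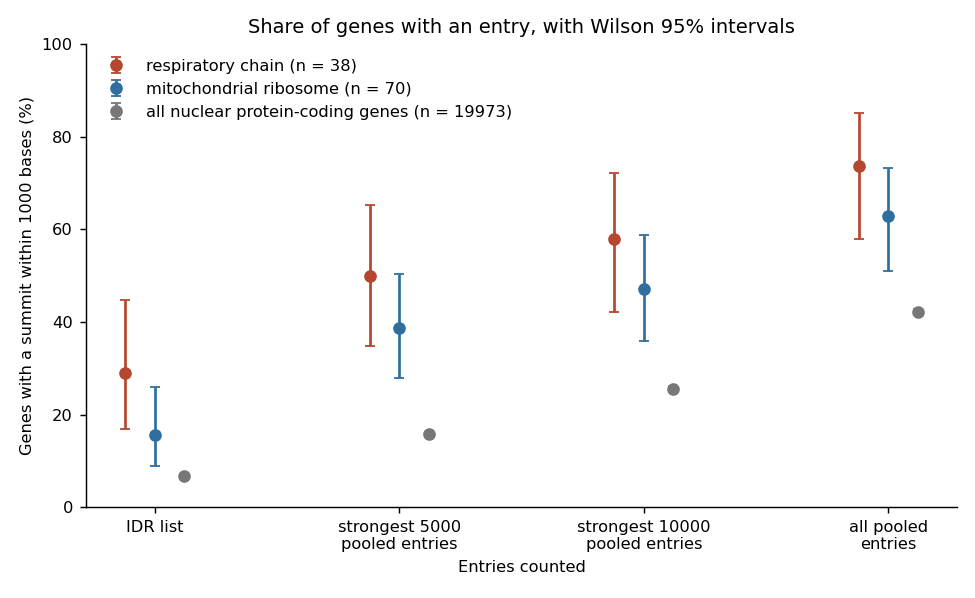
Share of genes (percent) with a summit within 1000 bases of a start, as more of the pooled list is counted from left to right; bars are Wilson 95% intervals. The respiratory chain runs from 28.9 to 73.7%, the mitochondrial ribosome from 15.7 to 62.9% and all nuclear protein-coding genes from 6.76 to 42.1%; the intervals of the first 2 overlap at every step.

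Most summits sat upstream of a start and close to it, as at genes with an IDR peak in general. Of the 22, 20 lay upstream of the nearest start of the gene, against 1193 of the 1351 genes with an IDR peak (88.3%). At cox-6B and atp-3 that start was an internal one, and the summit lay within the gene. The summits at mrpl-47 and mrps-15 lay 1 and 4 bases downstream of the start. The median distance was 137.5 bases, against 276 over the 1351 genes with an IDR peak. By annotation, 15 summits lay between genes, 5 in untranslated parts of exons, 1 in an intron and 1 in an exon of a non-coding gene. Many starts of worm genes are annotated where a leader RNA is spliced on, so that a distance is to the annotated start.

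In 13 of the 22 peaks the window held the start of another protein-coding gene as well (735 of 1351 genes, or 54.4%, over all genes with an IDR peak). Some of these neighbours also serve mitochondria or translation: asg-1, named for ATP synthase subunit g, beside mrps-15, and rpl-28, a cytosolic ribosomal protein gene, beside mrpl-49. For cox-6B, mrps-35, mrpl-45 and mrpl-18 the neighbour's start was the nearer. The peak at mrps-35 was 51 bases from the start of sws-1 and 105 from its own, and that at mrpl-18 was 153 bases from C14B9.8 and 233 from its own. A peak between 2 starts cannot be assigned to either gene from these lists.

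**Figure D3:**
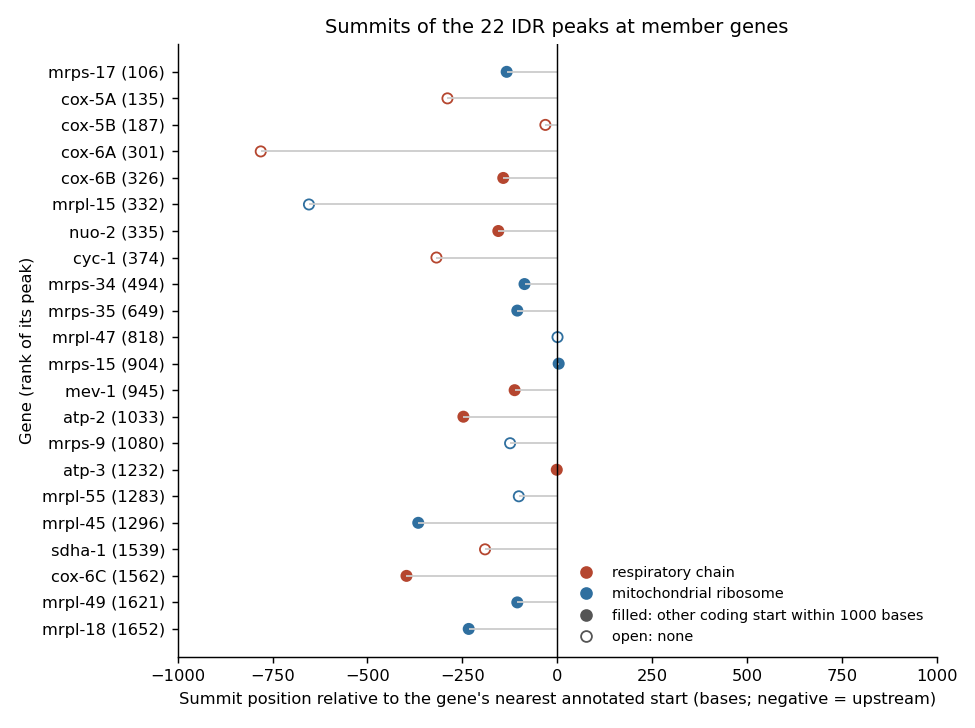
Position of the summit of each of the 22 IDR peaks relative to the nearest annotated start of its gene (bases, negative upstream), ordered by rank (in brackets); filled points have another protein-coding start within 1000 bases. All but cox-6A (781 bases) and mrpl-15 (654 bases) lie within 400 bases of the start.

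Genes with more annotated starts have more room for a summit. Of the 108 genes, 89 had a single annotated start, and the mean was 1.21 starts against 1.49 over all genes. Among genes with a single start, 14 of 89 (15.7%) had a peak against 5.35% of all such genes, and among those with more, 8 of 19 (42.1%) against 10.5%. The respiratory chain had a mean of 1.37 starts and the ribosome 1.13, and the part of this in the difference between them was not tested.

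The chromosomes contributed unequally. Chromosome III held 10 of the 22 peaks, at 10 of its 32 genes of these groups (31.2%, against 9.7% of all its genes). Chromosome I held 7 at 25 genes (28.0%, against 9.69%), IV 2 at 17 (11.8%, against 6.25%), V 2 at 15 (13.3%, against 4.31%) and X 1 at 2 (against 6.22%). Chromosome II held 0 at 17 genes (interval 0 to 18.4%, against 6.55%). The genes of II included nuo-1, sdhb-1, sdhd-1, cox-10 and cox-15.

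The replicates shared most of these peaks, but their order differed. The IDR list derives from the replicate lists, so this is a description. With at least 50% reciprocal overlap, 19 of the 22 peaks were met in replicate 1, 20 in replicate 2 and 19 in both, and all 22 overlapped entries of both by at least 1 base. The 3 not met in both were the narrow peaks of mrps-17, cox-5A and cox-5B. Judged by the strongest overlapping entry, 15 of the 22 were among the 1681 strongest of both replicates, 17 in replicate 1 and 20 in replicate 2.

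Taking the 1681 strongest entries of each replicate by itself gave 19 of the 108 genes in replicate 1 (17.6%, against 6.63% of all genes) and 22 in replicate 2 (20.4%, against 6.54%). The respiratory chain had 11 in either, though not all the same genes, and the ribosome 8 in replicate 1 and 11 in replicate 2. With any entry counted, 69 of the 108 genes had one in replicate 1 (against 41.6% of all genes), 73 in replicate 2 (against 39.8%) and 58 in both (53.7%, against 28.1%). Peaks on the mitochondrial genome, which encodes a few core subunits of some respiratory complexes, were uneven between the replicates. In replicate 2, 13 entries stood there, with a best rank of 2, and in replicate 1 there was 1, with rank 348. The pooled list held 11 entries there and the IDR list 10, both with a best rank of 3.

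**Figure D4:**
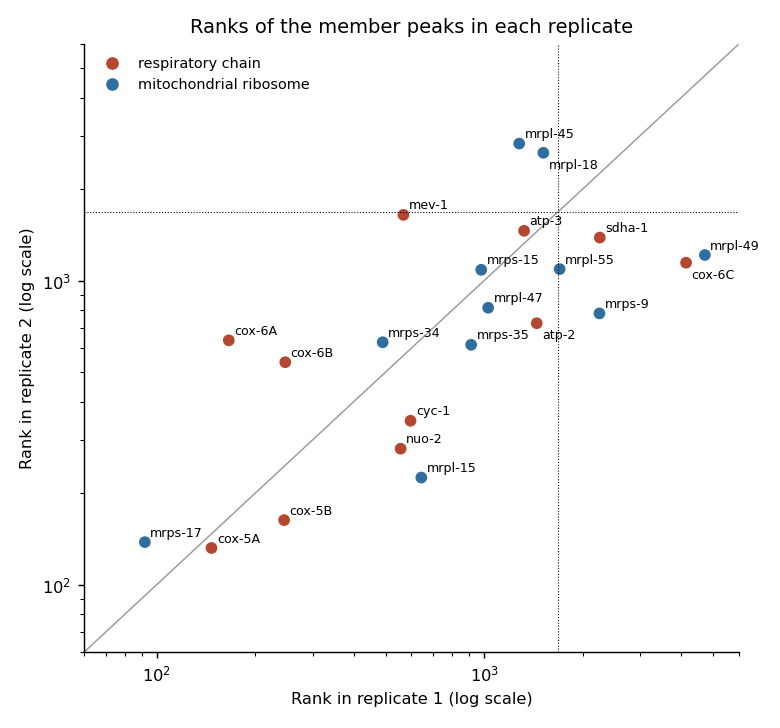
Rank of the strongest overlapping entry in replicate 1 and replicate 2 (log axes) for each of the 22 IDR peaks; the diagonal marks equal ranks and dotted lines mark rank 1681. The peaks of mrps-17 and cox-5A are near the diagonal at ranks of 92 to 147, while cox-6C (4139 and 1145) and mrpl-49 (4724 and 1214) lie farthest from it toward replicate 2.

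Other nuclear genes of mitochondria, in 6 lists drawn up from symbols, also held peaks, to be read against 6.76% of all genes. Protein import and membrane shape had 9 of 24 (37.5%, interval 21.2 to 57.3%), led by ddp-1, a small import chaperone gene, with rank 94, the chaperonin gene hsp-60 with 173, the mitofusin gene fzo-1 with 202 and the import receptor gene tomm-20 with 288. The others were tin-9.2 (716), chch-3 (1105), immt-1 (1326), tomm-7 (1426) and hsp-6 (1503). Subunits of the respiratory chain that carry other symbols, with the ATP/ADP carriers, had 7 of 22 (31.8%, interval 16.4 to 52.7%). These were ucr-2.1 (rank 648), nduf-11 (705), ant-1.1 (731), asg-1 (904), ucr-2.2 (1226), nduf-2.2 (1271) and nduf-6 (1625).

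Mitochondrial genome upkeep, translation factors and tRNA synthetases had 4 of 19 (21.1%, interval 8.51 to 43.3%): ears-2 with rank 9 and a signal value of 497.9, mtss-1 (241), gfm-1 (970) and tufm-2 (1456). The citric acid cycle had 4 of 22 (18.2%, interval 7.31 to 38.5%): idhg-1 with rank 14 and a signal value of 438.8, ogdh-1 (386), sucl-1 (585) and dlst-1 (873). Ubiquinone synthesis and assembly factors had 3 of 18 (16.7%, interval 5.84 to 39.2%), at sco-1 (486), coq-5 (1426) and coq-3 (1557). The stress response and protease list had 2 of 14 (14.3%, interval 4.01 to 39.9%), at clpp-1 (610) and ubl-5 (1037). The intervals of these last 2 lists include the share of all genes. The peak of coq-5 is also that of tomm-7, and the peak of asg-1 is that of mrps-15. The peaks of fzo-1, tomm-20, immt-1, nduf-11 and ucr-2.2 had no other protein-coding start in the window. Nor did those of ogdh-1, sucl-1, dlst-1, sco-1, coq-3 and ubl-5. At the other genes with a peak, ears-2 and idhg-1 among them, the window also held the start of another protein-coding gene. Those peaks cannot be assigned to a single gene from these lists.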

How the data were processed

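The authors deposited narrowPeak lists in ce10 and ce11 coordinates, and the 4 ce11 lists were used: IDR peaks, a pooled relaxed list and a relaxed list for each of the 2 replicates. Per the sample records the authors deposited, relaxed lists derive from alignments and 1 further file of unstated kind, and the IDR peaks from the relaxed lists. The signal value of an entry is the authors' and was used within a list only. The other deposited column used is the summit, as an offset from the start of an entry. Aligner, peak caller, IDR threshold: not given in the sources used here.

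No entry passed the end of its WBcel235 chromosome (0 entries). Gene models were those of Ensembl release 115. Members, lists and tests were chosen with earlier results of these data known. Of the symbols in the lists, lpd-8, sdhf-1, gfm-2 and wars-2 were not matched. Peaks were assigned with Python 3.11.15 and pandas 2.3.3, and the assignment was checked on 1500 planted summits, all assigned as planted. No set test was run. Alternatives were the window, the start used, a stronger list, small RNA neighbours, either replicate left out and the overlap rule. Genes named are those with an IDR peak, the 10 strongest entries below it, genes at the window's edge, mev-1, gas-1, isp-1, clk-1, ucr-1 and the sdha, cyc-2, cox-5 and cox-6 genes. Further genes of the small role groups were named after their values were seen.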

Additional observations from a re-analysis of the deposited data

How the results depend on the processing

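Of 57 recomputed values, 53 kept the reported level: counts stayed within 1.5 times, and differences within the interval of the reported difference. The other 4 follow from counting fewer entries. Among the 840 strongest IDR peaks, 11 of the 108 genes had a peak, 6 of the respiratory chain and 5 of the ribosome (15.8% and 7.14%, against 3.69% of all genes), and 12 of the 22 peaks were met in both replicates when only their strongest entries counted. With 1 replicate left out, the count was 19 to 22 genes, 11 to 11 for the respiratory chain and 8 to 11 for the ribosome. Without replicate 1, 20 of the 22 genes kept a peak, mrpl-18 and mrpl-45 did not, and mrpl-12 and mrpl-23 were gained. Without replicate 2, 17 did, and cox-6C, mrpl-49, mrpl-55, mrps-9 and sdha-1 did not, while atp-1 and cox-14 were gained. The 11 respiratory chain genes were therefore not the same without replicate 2. The respiratory chain stood above the ribosome in every setting run, by 7.97 to 17.5 percentage points. The interval of that difference was 2.24 to 34.3 without replicate 2 and 0.0677 to 31.5 with the single nearest start. It included 0 in the other settings. These intervals cover counting error over genes, which are not replicates, so whether the groups differ was not tested. When peaks close to a tRNA, snoRNA or snRNA gene were dropped, cox-6A and sdha-1 were lost and the difference was 7.97 points, over 1.5 times below the reported 13.2; it was 8.65 among the 840 strongest IDR peaks. Depth is unknown, so that an entry's absence does not show that a gene was not bound, and chromatin of whole embryos cannot show in which cells a gene was bound.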

Other observations

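Reading the windows under the 22 peaks brought up a 7-letter sequence, GCGCTCC, that was not among the motifs listed beforehand and was chosen after reading them, so that its counts are descriptions. It was met on either strand within 50 bases of the summit at cox-6B, mrpl-47, mrps-9, mrpl-55 and mrpl-45, 5 of 22 (22.7%), against 61 of 1671 nuclear IDR summits (3.65%). These were 4 of the 11 ribosome peaks and 1 of the 11 respiratory chain peaks. In promoters it was met at 8 of the 108 genes (7.41%), against 1.95% of all promoters of that length. Of these 8 genes, 4 were among the 22 whose windows had brought it up, so the promoter share is no separate observation.

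Strong IDR summits stood just beyond the window at some genes that count as having no peak. The nearest to mrps-28 had rank 59 at 1014 bases, that of mrps-21 rank 84 at 1056 bases and that of cyc-2.1 rank 111 at 1052 bases. With a window of 2000 bases, mrps-28, mrps-21, cyc-2.1, mrpl-48 and mrps-18.C were added, which gave 27 of 108 genes (against 9.52% of all genes).

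The lists also differ at single genes. A set of 13 genes had no pooled entry but had one in a replicate list, the best at rank 5723 (mrpl-16 in replicate 2). A further 17 had a pooled entry and lacked one in at least 1 replicate list, the strongest of them at pooled rank 6941 (mrpl-30). These 2 counts were not made over all genes. The replicate lists differed there as well: 41.6% of all genes had an entry in replicate 1, 39.8% in replicate 2 and 28.1% in both.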
